A study of Homo sapiens with 2 samples.

Results

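The genes described here encode the SLC25 mitochondrial carriers, measured in wild-type HL-60 cells, a cell line from a human promyelocytic leukaemia, grown in medium with 10% serum. They were chosen by symbol: every gene named SLC25A followed by a number in the array's annotation, on a probe set with that symbol alone. The rule took 46 genes (49 probe sets) of the 18404 genes that had a symbol of their own. Expression was measured on 2 Affymetrix Human Gene 1.0 ST arrays, labelled replicates 1 and 2 of the wild-type line, so there is 1 group and no treatment, mutation or time to compare. Whether these were separate cultures is not stated in the labels, and their spread may be technical. All values are log2 signals made with RMA, which corrects background, equalises the arrays and summarises the probes of a probe set. HL-60 is 1 cell line, and nothing here speaks for primary promyelocytes.

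SLC25 proteins sit mostly in the inner mitochondrial membrane, where they exchange nucleotides, phosphate, amino acids, organic acids and cofactors between cytosol and matrix. Each is built from a repeated pair of membrane-spanning helices and alternates between states open to one side or the other. They are made in the cytosol, pass the outer membrane through the TOM complex and are inserted by the TIM22 complex. Through them, ATP made by respiration leaves the matrix, and reducing equivalents, citrate and intermediates of heme and one-carbon metabolism cross the membrane.

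Background was read from 360 olfactory receptor genes, and a gene counted as detected, or above background, where both of its signals lay over their 95th percentile (2.98 on replicate 1 and 2.88 on replicate 2). A stricter second threshold was the same percentile of 115 genes for beta-defensins, bitter taste receptors or keratin-associated proteins (5.41 and 5.23). The arrays had median gene signals of 3.35 and 3.34 and correlated across genes, which are not independent replicates, with Pearson's r = 0.974. Over all genes the SD of replicate 2 minus replicate 1 was 0.39, or 0.28 per array. Of 9 measured promyelocyte markers, all 9 were above the olfactory set's threshold on both arrays. MYB (9.41 ± 0.17) and the proteoglycan gene SRGN (9.13 ± 0.17) were among the 5 that also exceeded the stricter one, and the granule gene AZU1 was the lowest (3.01 and 3.19). Of the T cell, B cell, erythroid and epithelial markers, 0 of 4, 1 of 2, 0 of 2 and 1 of 4 passed, the passing ones being CD79A (3.02 and 3.24) and KRT18 (3.94 and 3.97). In RNA from whole cultures, fewer cells of a type and less RNA per cell cannot be told apart. Signals of different probe sets also depend on their probes, so the order of the genes below is an order of signals and not of transcript abundance.

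Most of the carrier family was detected. Of 46 members, 33 (71.7%) passed the olfactory threshold, against 55.8% of all genes, and 11 (23.9%) passed the second threshold, against 17% of all genes. Of the remaining 13, 9 lay below the olfactory threshold on both arrays, and SLC25A20, SLC25A34, SLC25A43 and SLC25A53 passed it on replicate 2 only. The median signal of the members was 4.07 on replicate 1 and 4.08 on replicate 2, against 3.35 and 3.34 for all genes. The 5 members with the highest signal were the ADP/ATP carrier SLC25A5 (9.50 ± 0.33), the phosphate carrier SLC25A3 (7.12 ± 0.15), the folate carrier SLC25A32 (7.10 ± 0.57), the pyrimidine nucleotide carrier SLC25A36 (6.63 ± 0.19) and SLC25A40 (6.45 ± 0.33), each as mean ± SD of 2 arrays. The 5 lowest were SLC25A21 (1.23 on both arrays), SLC25A31 (1.50 ± 0.26), SLC25A52 (1.85 ± 0.56), SLC25A27 (2.03 ± 0.30) and SLC25A51 (2.17 ± 0.02).

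**Figure D1:**
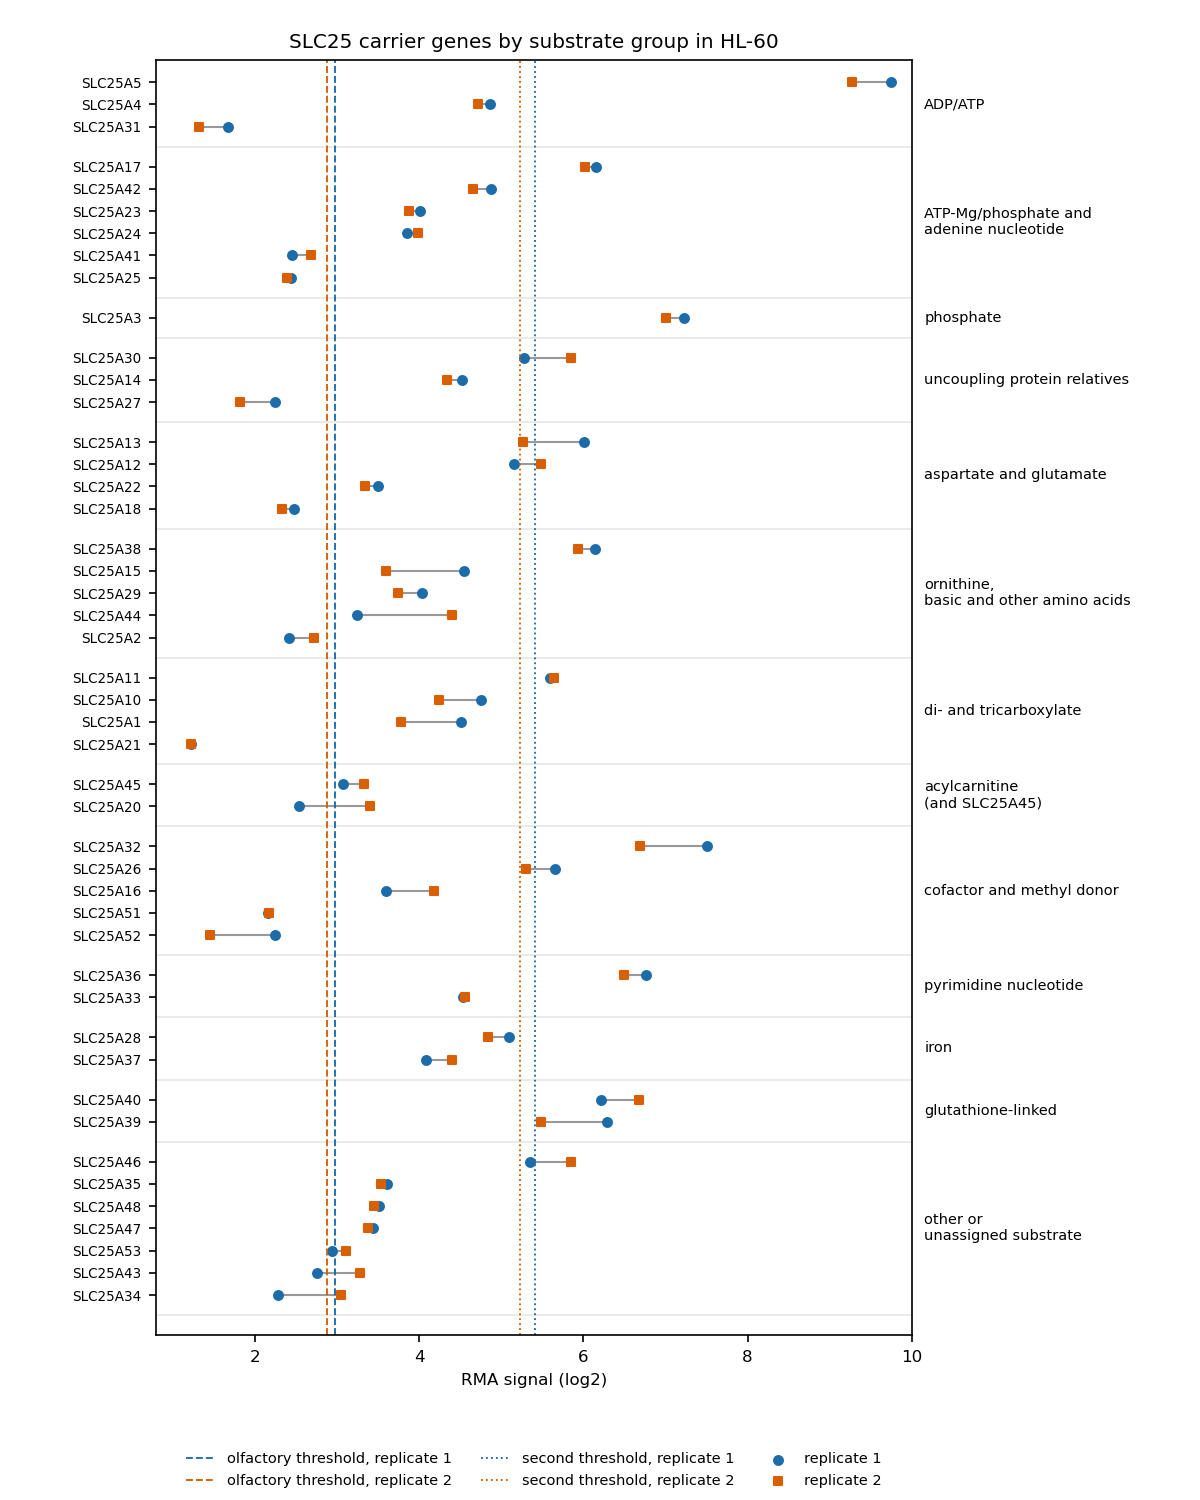
Log2 RMA signal (x axis) of the 46 SLC25 genes (rows) by substrate group, with circles for replicate 1, squares for replicate 2 and vertical lines for the background thresholds of each array. SLC25A5 stands apart at 9.74 and 9.27, and members of 1 substrate group often lie on both sides of the olfactory threshold.

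The ADP/ATP carriers, which export ATP from the matrix in exchange for ADP, fell into 3 classes of detection. SLC25A5, the form of proliferating cells, read 9.74 on replicate 1 and 9.27 on replicate 2, above both thresholds. SLC25A4, the form known from heart and skeletal muscle, read 4.87 and 4.72, above the olfactory threshold only. SLC25A31, the form known from testis, read 1.68 and 1.32 and was not above background. All 3 kept their class on each array taken alone. RefSeq lists 43 pseudogenes named after members of the family, 9 of them after SLC25A5, so its signal is uncertain where probes match more than 1 copy. SLC25A6 had no probe set of its own here and was not analysed. The promoter windows of the 3 genes are printed because the paralogues differ in detection. Each runs from 250 bases before to 50 bases after the annotated start (RefSeq, GRCh38.p14, 5′ to 3′ on the strand of the gene), at chrX:119468194-119468493 for SLC25A5, chr4:185143016-185143315 for SLC25A4 and chr4:127730150-127730449 for SLC25A31, all on the plus strand. Capitals mark TATAAA in SLC25A5, CCGGAAG and CCAAT in SLC25A4, and CACGTG in SLC25A31.
SLC25A5: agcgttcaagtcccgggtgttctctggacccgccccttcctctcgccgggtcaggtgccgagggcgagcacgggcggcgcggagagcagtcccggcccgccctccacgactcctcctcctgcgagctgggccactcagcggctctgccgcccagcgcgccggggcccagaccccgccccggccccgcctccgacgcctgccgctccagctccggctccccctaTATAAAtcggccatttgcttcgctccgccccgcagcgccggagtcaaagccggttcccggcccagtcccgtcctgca
SLC25A4: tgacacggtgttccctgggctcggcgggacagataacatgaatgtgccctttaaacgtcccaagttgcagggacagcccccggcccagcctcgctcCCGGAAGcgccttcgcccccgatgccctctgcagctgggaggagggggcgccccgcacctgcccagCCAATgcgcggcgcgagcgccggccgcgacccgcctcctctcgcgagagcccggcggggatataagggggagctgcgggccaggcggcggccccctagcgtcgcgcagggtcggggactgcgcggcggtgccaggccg
SLC25A31: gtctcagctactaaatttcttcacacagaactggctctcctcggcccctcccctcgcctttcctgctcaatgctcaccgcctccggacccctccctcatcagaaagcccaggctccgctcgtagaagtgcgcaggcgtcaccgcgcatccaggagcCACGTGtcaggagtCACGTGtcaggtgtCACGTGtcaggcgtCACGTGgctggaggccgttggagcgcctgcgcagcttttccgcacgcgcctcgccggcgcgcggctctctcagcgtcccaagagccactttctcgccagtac
In SLC25A5 the TATAAA match begins 27 bases before the start. In SLC25A31 the E-box CACGTG occurs 4 times, beginning 94, 80, 66 and 52 bases before the start, so that successive copies begin 14 bases apart. No other matched member had more than 2 copies in a window. A match of letters is a description and does not show that a factor binds.

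The other carriers of adenine nucleotides and phosphate were detected in part. SLC25A3, which imports the phosphate used by ATP synthase, read 7.23 and 7.01. Of 6 members of the group that moves ATP-Mg against phosphate, CoA or other adenine nucleotides, 4 were detected. The 1 above the second threshold was the peroxisomal carrier SLC25A17 (6.15 and 6.02). SLC25A42, which imports CoA, read 4.88 and 4.66. Of the ATP-Mg/phosphate carriers, SLC25A23 (4.01 and 3.88) and SLC25A24 (3.85 and 3.99) passed the first threshold, whereas SLC25A25 (2.44 and 2.39) and SLC25A41 (2.46 and 2.69) did not on either array. SLC25A23 and SLC25A41 are adjacent on chromosome 19 in RefSeq, with 0 genes listed between them, and lay on opposite sides of the threshold.

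Among relatives of the uncoupling proteins that carry an SLC25A symbol, SLC25A30 (5.28 and 5.85) and SLC25A14 (4.52 and 4.34) passed the olfactory threshold. The brain form SLC25A27 (2.25 and 1.82) did not. The uncoupling proteins with UCP symbols fall outside the naming rule and are given for context. UCP2, known from leukocytes, read 7.59 and 6.64 and passed both thresholds. UCP1 of brown fat (2.08 and 1.99) and UCP3 of muscle (2.89 and 2.73) were not above background.

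The carriers that feed the malate-aspartate shuttle, which passes reducing equivalents from cytosolic NADH into the matrix, were all detected. Of the aspartate-glutamate exchangers, SLC25A13 (citrin) read 6.01 and 5.27, above both thresholds, and SLC25A12 (aralar) read 5.16 and 5.49, above the second on replicate 2 only. The 2-oxoglutarate-malate exchanger SLC25A11 read 5.60 and 5.64. The 4 enzymes of the shuttle passed both thresholds as well, led by mitochondrial malate dehydrogenase MDH2 (9.54 and 9.15) and followed by MDH1 (6.75 and 6.47), GOT1 (6.38 and 6.83) and GOT2 (6.43 and 6.17). Of the glutamate carriers, SLC25A22 (3.50 and 3.34) passed the olfactory threshold and SLC25A18 (2.48 and 2.33) did not.

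Carriers of other amino acids passed in 4 of 5 cases. SLC25A38, which carries the glycine used for heme synthesis and is known from erythroid cells, read 6.14 and 5.94, above both thresholds. The ornithine carrier SLC25A15, after which 5 pseudogenes are named, read 4.55 and 3.60, and its close relative SLC25A2 (2.42 and 2.72) was not above background. SLC25A29, a carrier of basic amino acids, read 4.04 and 3.74. SLC25A44, which carries branched-chain amino acids, read 3.24 and 4.40. The ornithine and urea cycle enzymes measured beside them passed the olfactory threshold in 4 of 7 cases (57.1%). This was near the share of all genes (55.8%). Besides those named next, ASL (4.14 and 3.96) and ARG2 (3.53 and 3.66) passed, and ARG1 (2.81 and 2.05) did not. Argininosuccinate synthase ASS1 was the highest (6.63 and 6.95), CPS1 read 4.82 and 5.23, while ornithine transcarbamylase OTC (1.90 and 1.70) and ornithine aminotransferase OAT (1.89 and 1.53) were not above background. The ornithine carrier thus passed the olfactory threshold, and these 2 matrix enzymes that use ornithine did not. On replicate 2 the carrier lay below the 99th percentile of the olfactory set (3.76). Low signals of the enzymes may also depend on their probes, so the contrast is one of signals only.

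Carriers of di- and tricarboxylates passed in 3 of 4 cases. The citrate carrier SLC25A1, which exports citrate for lipid synthesis, read 4.51 and 3.78, and the dicarboxylate carrier SLC25A10 read 4.75 and 4.24. SLC25A21, which carries 2-oxoadipate, was the lowest member of the family at 1.23, with exactly equal deposited values on both arrays. The enzymes on either side of citrate export passed both thresholds, with citrate synthase CS at 7.82 and 7.20 and ATP citrate lyase ACLY at 7.09 and 6.76. The cytosolic isocitrate dehydrogenase IDH1 read 6.18 and 6.69, and the malic enzyme ME1 read 3.78 and 4.60. All 4 measured genes of this list passed the olfactory threshold, against 55.8% of all genes.

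The carnitine-acylcarnitine carrier SLC25A20, which brings fatty acyl groups to matrix oxidation, read 2.54 and 3.41. It lay below the olfactory threshold on replicate 1 and above it on replicate 2. SLC25A45, placed beside it here by sequence kinship although its substrate is not certain, read 3.07 and 3.33 and was the passing member nearest to the threshold. Of the enzymes of the carnitine shuttle, CPT1A (5.95 and 5.79) passed both thresholds, CPT2 (3.59 and 3.33) and CRAT (3.23 and 3.48) the first, and CPT1C (2.68 and 3.31) the first on replicate 2 only.

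Of 5 measured carriers of cofactors or methyl donors, 3 passed the olfactory threshold and 2 of these also the second. SLC25A32, a carrier of folate and flavin adenine dinucleotide, read 7.50 and 6.69. SLC25A26, which imports the methyl donor S-adenosylmethionine, read 5.65 and 5.30 and passed both thresholds. SLC25A16, linked to CoA, read 3.60 and 4.18, above the first threshold only. The NAD carrier SLC25A51 (2.16 and 2.18) and its close copy SLC25A52 (2.25 and 1.46) were below background on both arrays. SLC25A51 was measured by 2 probe sets, at 1.59 and 1.64 for one and 2.73 on both arrays for the other, and sequence shared with SLC25A52 and with pseudogenes makes both values uncertain. All 6 genes listed for mitochondrial folate metabolism or for making S-adenosylmethionine passed the olfactory threshold, against 55.8% of all genes. The highest was the methionine adenosyltransferase MAT2A (8.98 and 9.11), which makes S-adenosylmethionine, followed by MTHFD2 (7.56 and 8.32) and SHMT2 (7.30 and 7.51). ALDH1L2, which oxidises formyl-folate in the matrix, read 4.54 and 6.24, the widest gap between arrays in that list, and MTHFD2L was the lowest (3.79 and 3.69).

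Both pyrimidine nucleotide carriers, both iron carriers and both glutathione-linked carriers were above background. SLC25A36 read 6.76 and 6.49, above both thresholds, and SLC25A33 read 4.53 and 4.56 as the mean of 2 probe sets (4.78 and 4.75 for one, 4.27 and 4.37 for the other). Mitoferrin 2, SLC25A28, the form used widely across tissues, read 5.09 and 4.84. Mitoferrin 1, SLC25A37, the erythroid form, read 4.09 and 4.40 as the mean of 2 probe sets (4.64 and 5.13 for one, 3.54 and 3.66 for the other). Both mitoferrins lay between the thresholds on both arrays. SLC25A39, which imports glutathione, read 6.29 and 5.49, and its paralogue SLC25A40 read 6.22 and 6.68. Both passed the second threshold on both arrays. Of 6 genes of mitochondrial iron use, 5 (83.3%) passed the olfactory threshold, against 55.8% of all genes. The heme synthesis enzyme ALAS1 read 6.61 and 6.48, the iron-sulfur scaffold ISCU 6.65 and 6.42, ferrochelatase FECH 4.91 and 4.25, and PPOX (2.08 and 1.85) was not above background. The erythroid enzyme ALAS2 read 2.70 and 3.14, above the threshold on replicate 2 only.

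Of 7 carriers with another or no assigned substrate, 4 passed the olfactory threshold. SLC25A46, an outer membrane member known for its part in mitochondrial shape, read 5.35 and 5.85, the highest of the group and above the second threshold on replicate 2 only. SLC25A35 (3.61 and 3.54), SLC25A48 (3.51 and 3.45) and SLC25A47 (3.44 and 3.38), the last known from liver, lay between the thresholds and were nearly equal on both arrays. SLC25A53 (2.94 and 3.11), SLC25A43 (2.76 and 3.28) and SLC25A34 (2.29 and 3.05) passed on replicate 2 only. SLC25A43 neighbours SLC25A5 on chromosome X in RefSeq, with 0 protein-coding genes between them. SLC25A29 and SLC25A47 are likewise neighbours on chromosome 14, and both passed the olfactory threshold only.

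The share of SLC25 genes detected (71.7%) lay between that of the other SLC families and that of the respiratory chain subunits, as counts without a test. Of 313 genes of other SLC families, 155 (49.5%) passed the olfactory threshold and 26 (8.31%) the second, with medians of 3.03 and 3.13. The highest of these were the amino acid transporters SLC38A2 (9.22 and 10.05) and SLC38A1 (9.26 and 9.97), and the lowest was SLC7A13 (1.64 and 1.04). Of 77 nuclear-encoded respiratory chain and ATP synthase subunits, 70 (90.9%) were detected and 49 (63.6%) exceeded the second threshold, from ATP5MG (9.39 and 9.43) and COX5A (9.43 and 9.34) down to the testis-type subunit COX7B2 (1.05 and 1.50). Among all genes the shares were 55.8% and 17%. Genes are not replicates, and the differences between lists were not tested.

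The machinery that imports carriers was detected almost throughout. Of 13 measured TOM and TIM22 pathway genes, 12 (92.3%) lay above the olfactory threshold, against 55.8% of all genes. The second threshold was passed by 4 of the 13 (30.8%), against 17% of all genes. The TOM receptors TOMM20 (6.95 and 7.19) and TOMM70 (6.40 and 6.61), the latter the main receptor for carrier precursors, passed both thresholds. The small TIM chaperone TIMM8B (7.36 and 6.78) was the highest, TIMM22, the insertion channel, read 5.32 and 5.17, and TIMM8A (3.01 and 2.79) passed on replicate 1 only. Of 19 other mitochondrial membrane transport genes, 17 (89.5%) were detected and 9 (47.4%) exceeded the second threshold, against the same shares of all genes. MTCH2, an outer membrane member of the carrier superfamily, was the highest (8.09 and 7.47), followed by UCP2. The pore gene VDAC3 (7.11 ± 0.15) and the pyruvate carrier subunits MPC1 (7.25 and 6.76) and MPC2 (6.01 and 6.51) passed both thresholds, and UCP1 was the lowest. Over all 31 partner enzymes named above or listed with them, 26 (83.9%) were detected and 16 (51.6%) exceeded the second threshold. The shares of all genes were 55.8% and 17%.

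**Figure D2:**
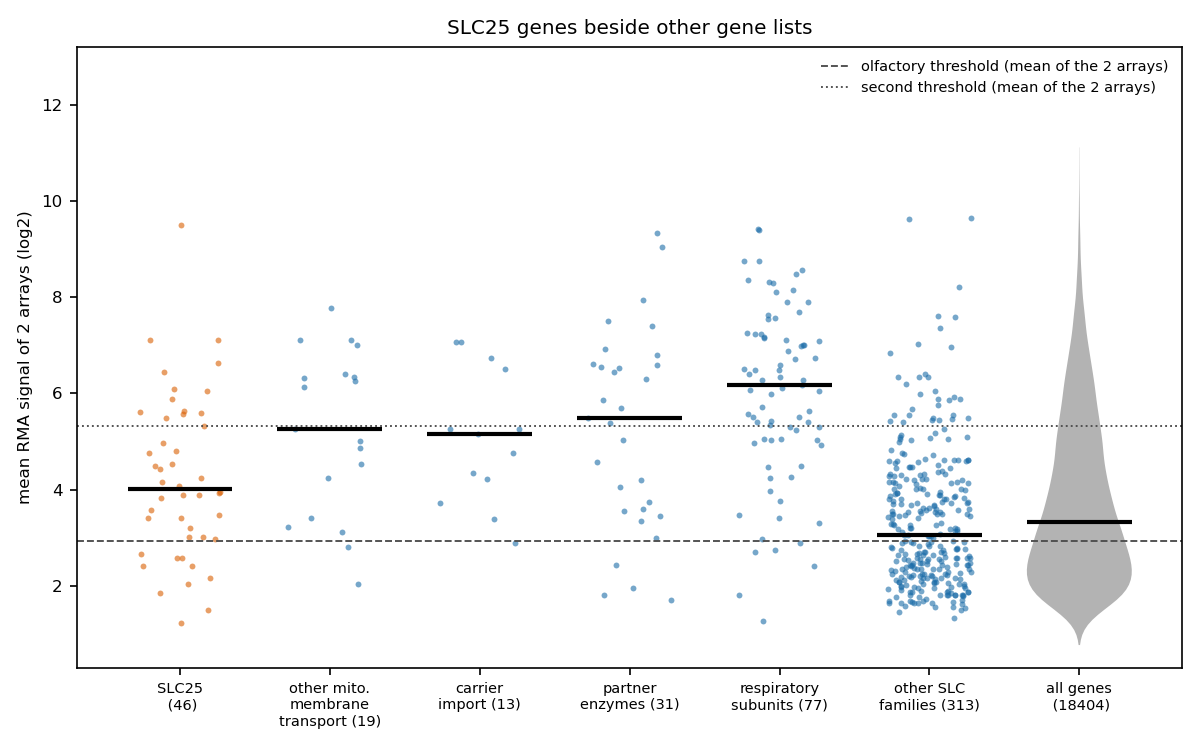
Mean log2 RMA signal of 2 arrays (y axis) for each gene of 6 lists (points, with their number in brackets) and for all 18404 genes (grey outline), with black bars for medians and dashed and dotted lines for the thresholds. The SLC25 genes (71.7% above the olfactory threshold) stand beside respiratory subunits (90.9%) and other SLC families (49.5%), with no test of the differences.

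Single carriers differed between the arrays in both directions. On replicate 2, 18 members were higher than on replicate 1, 27 (of 46, against 52.6% of all genes) were lower and 1 was equal. The median difference, replicate 2 minus replicate 1, was -0.10 on the log2 scale, against -0.04 for all genes. A difference of over 0.5 (1.41-fold) was found upwards in 7 members, against 7.95% of all genes, and downwards in 7, against 9.58% of all genes. Together these 14 were 30.4% of the family, against 17.5% of all genes, and the SD of the difference was 0.47 among members. The share was 30.8% among the carrier import genes, 25.8% among the partner enzymes and 22.1% among the respiratory chain subunits. It was 21.1% among the other mitochondrial membrane transport genes and 15% among the other SLC families. The higher share is therefore not read as particular to the carriers. With 1 array on each side no difference has a replicate check. Of the 11 members above the second threshold, 9 were lower and 2 higher on replicate 2. Among all genes at any signal 52.6% were lower, and the share among all genes above that threshold was not counted. The 9 are therefore not read as a trait of the carriers.

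The widest gap was that of SLC25A44, higher on replicate 2 by 1.16 and the 1 member past 1 on the log2 scale. SLC25A20 (0.88), SLC25A34 (0.76), SLC25A16 (0.58), SLC25A30 (0.56), SLC25A43 (0.53) and SLC25A46 (0.50 after rounding) were also higher there. Of these 7, 4 were above background on both arrays. In the other direction SLC25A15 was lower by 0.95 (difference -0.95), followed by SLC25A32 and SLC25A39 (-0.80 each), SLC25A52 (-0.79), SLC25A1 and SLC25A13 (-0.73 each) and SLC25A10 (-0.51). Of these 7, 6 were above background on both arrays, the exception being SLC25A52. The largest differences in each direction, those of SLC25A44 and SLC25A15, were both in the group of other amino acids. That group of 5 had a median difference of -0.2, with 2 members higher and 3 lower, so no common shift is read from them. Neither gene passed the 99th percentile of the olfactory set on both arrays. Gene lists outside the family also differed between the arrays. The 9 promyelocyte markers had a median difference of -0.25, with 3 lower and 0 higher by over 0.5. The 3 were CTSG (-1.75), PRTN3 (-1.48) and MPO (-0.73), the first 2 of which differed by more than any carrier. The other markers went both ways. MYB (0.24), ELANE (0.24), SPI1 (0.23) and AZU1 (0.18) were higher on replicate 2, and SRGN (-0.25) and CEBPE (-0.26) lower. The 77 respiratory subunits also had a median of -0.25, with 15 lower and 2 higher. The part of these groups in the carrier differences was not tested.

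**Figure D3:**
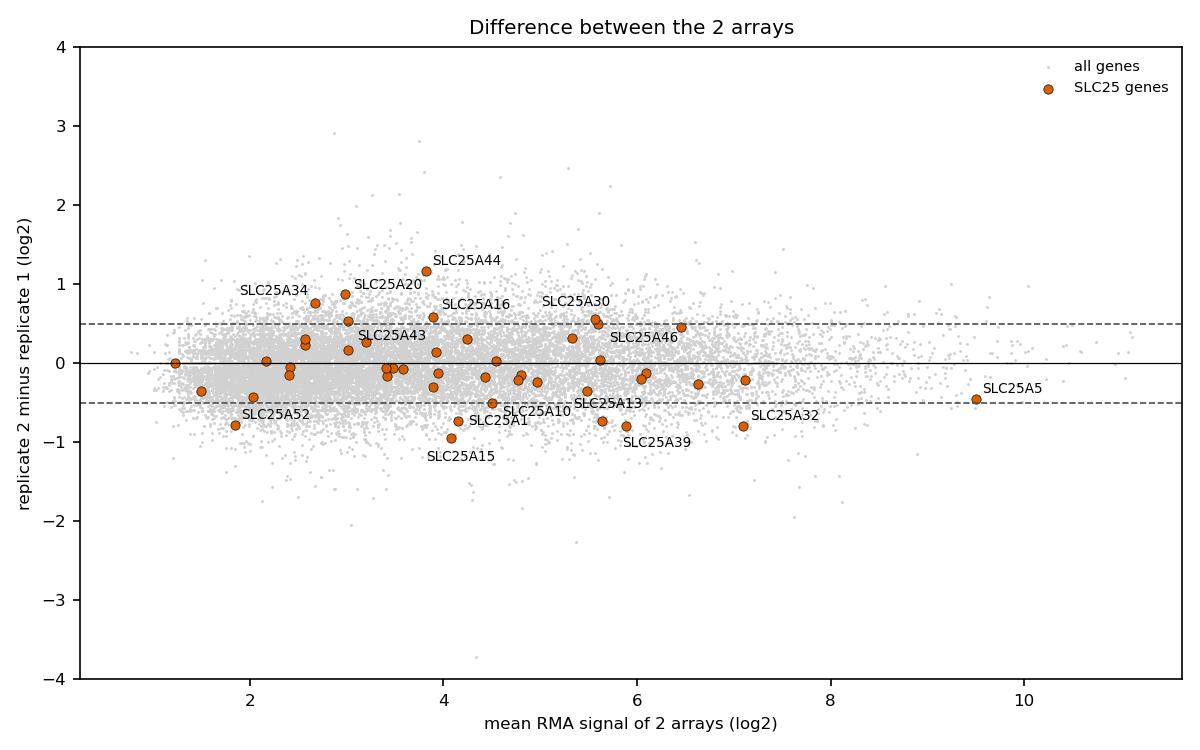
Difference between the arrays, replicate 2 minus replicate 1 (y axis, log2), against the mean log2 RMA signal of both (x axis), for all genes (grey) and SLC25 genes (orange), with dashed lines at a difference of 0.5 either way. SLC25A44 lies highest at 1.16 and SLC25A15 lowest at -0.95 among the carriers.

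The promoter windows of these 2 carriers are printed because they carried the largest difference in each direction, at chr1:156193854-156194153 for SLC25A44 and chr13:40789361-40789660 for SLC25A15 (RefSeq, GRCh38.p14, both on the plus strand). Capitals mark CCAAT or its complement in SLC25A44 and GGGCGG or its complement in SLC25A15.
SLC25A44: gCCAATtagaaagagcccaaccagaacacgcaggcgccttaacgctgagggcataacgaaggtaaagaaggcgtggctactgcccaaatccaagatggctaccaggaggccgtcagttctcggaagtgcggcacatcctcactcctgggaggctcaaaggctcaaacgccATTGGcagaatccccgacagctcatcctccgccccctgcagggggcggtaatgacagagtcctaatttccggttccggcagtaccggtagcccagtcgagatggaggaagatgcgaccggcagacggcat
SLC25A15: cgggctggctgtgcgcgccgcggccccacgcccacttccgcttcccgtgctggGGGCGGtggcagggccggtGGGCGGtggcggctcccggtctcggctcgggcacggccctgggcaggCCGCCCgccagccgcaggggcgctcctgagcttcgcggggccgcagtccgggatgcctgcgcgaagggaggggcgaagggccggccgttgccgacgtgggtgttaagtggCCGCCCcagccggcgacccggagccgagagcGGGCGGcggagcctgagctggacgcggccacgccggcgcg
The window of SLC25A15 held 45 CpG dinucleotides at 80% G and C, and that of SLC25A44 held 19 at 58.3%. The GC box GGGCGG occurred 5 times in SLC25A15, counting both strands. The window of SLC25A44 also holds GGGCGG and its complement, left in small letters because only CCAAT was marked there. The presence of a GC box thus does not set the 2 windows apart, though SLC25A15 holds more copies.

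Promoter windows could be matched for 39 of the 46 members, 6 of them with several windows, giving 49 windows. These were set beside all 35116 windows of the RefSeq table, each motif being searched on both strands. The E-box CACGTG, which MYC and other basic helix-loop-helix factors recognise, was found in 9 of 49 windows (18.4%), against 7.26% of all windows. The genes were SLC25A13, SLC25A22, SLC25A26, SLC25A31, SLC25A33, SLC25A36, SLC25A38, SLC25A46 and SLC25A51, of which SLC25A31 and SLC25A51 were not above background. The ETS-type motif CCGGAAG was found in 11 windows (22.4%), against 10.3%, and the GC box GGGCGG in 32 (65.3%), against 45%. CCAAT was found in 21 (42.9%), against 34.6%, and TATAAA in 4 (8.16%), against 11.5%, those 4 belonging to SLC25A5, SLC25A18 and SLC25A26. The cyclic AMP response motif TGACGTCA was found in 3 (6.12%), against 1.85%. The amino acid response letters TGATGCAA were in 0 windows of the carriers, against 0.866% of all windows. The core letters of the NRF1 site, GCATGCGC, were also in 0, against 3.05% of all windows. No motif searched lies within another, but the windows of 1 gene can overlap. The median G and C content was 65.7% over the 39 genes, against 58.3% over all genes with a window. The motifs were chosen after the sequences were seen, so their shares are a description only and cannot test an excess. The motif shares were not adjusted for base composition, and their differences were not tested.

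The windows of the carriers were rich in CpG, the dinucleotide that DNMT1 methylates. The median was 25 CpG per window over the 39 genes, against 14 over 27305 genes of the table. The 28 matched members above the olfactory threshold had a median of 27.1, and the 11 that were not above it on both arrays had 19. The ranges overlapped widely, from 7 to 48 in the first set and from 3 to 37 in the second. SLC25A18, not above background, had the fewest at 3, whereas SLC25A51 (37) and SLC25A31 (28) were not above background with as many as detected members. Methylation itself was not measured in these arrays.

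**Figure D4:**
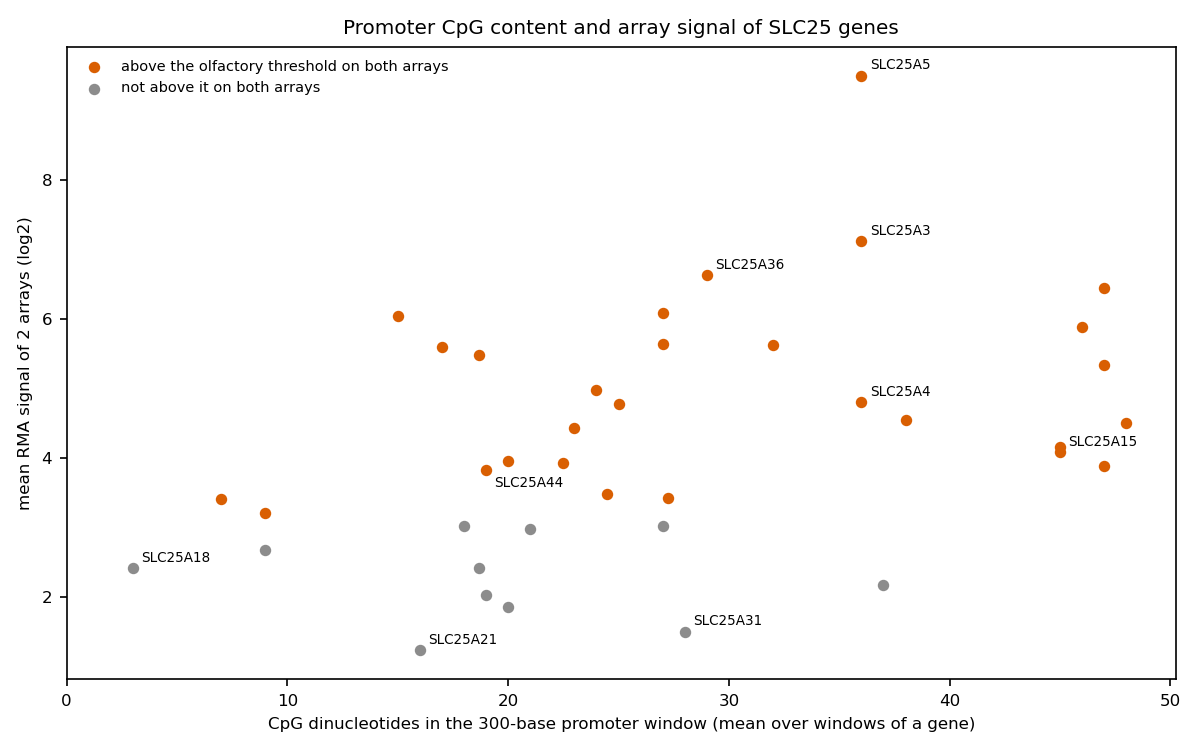
Mean log2 RMA signal of 2 arrays (y axis) against the number of CpG dinucleotides in the 300-base promoter window (x axis, mean over windows of a gene) for the 39 matched SLC25 genes, orange where above the olfactory threshold on both arrays and grey where not. Both kinds of gene are found between 7 and 37 CpG, and SLC25A5 stands at 36 CpG with a signal of 9.50.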

How the data were processed

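Total RNA was treated with DNase, and 200 ng per sample was amplified and biotin-labelled for the arrays, per the labels' protocols. What the authors deposited is an RMA log2 signal for each probe set, per the submitters' processing notes. The log base is not stated and was taken as RMA's own. The sources used here give no software, version or build. No scanner files were used, so background correction and scan batches could not be examined, and the number of arrays limits the precision. Of 32321 probe sets, 19158 had 1 symbol, 1388 several and 11775 none. Symbols were updated through Entrez IDs (19128 found in RefSeq, GRCh38.p14), giving 18404 genes, and several probe sets of a gene were averaged. Members were taken by the annotation's own symbol.

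Members, substrate groups, comparison lists and thresholds were chosen with earlier results of these data known. The rule named the highest and lowest member of each substrate group, the 5 highest and 5 lowest members, the 5 largest differences, those nearest the olfactory threshold, and the 2 highest and the lowest gene of each comparison list. The motifs and the SLC25A31 window were chosen after the sequences were seen. No p-values were computed, because the design has 1 group and thus no groups to compare. Calls were tested on simulated data at high and low signals only, and the outcome is not given here. The accuracy of calls for signals near or between the thresholds was not tested. Alternatives were quantile normalization, removal of a loess trend (span 0.3), updated symbols, the highest probe set per gene, the second background set, a threshold at the 99th percentile, detected genes only and each array alone. Tools were Python 3.11.15, numpy 2.4.6, pandas 2.3.3, statsmodels 0.14.6 and matplotlib 3.10.9.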

Additional observations from a re-analysis of the deposited data

Results flagged for a closer look

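A signal appeared in a probe set that the naming rule leaves out. SLC25A5-AS1, a long noncoding RNA gene next to SLC25A5, read 4.80 on replicate 1 and 4.12 on replicate 2 (mean 4.46) and passed the olfactory threshold on both arrays. The probe sets of the pseudogenes SLC25A51P1 (2.24 and 2.01) and SLC25A51P4 (2.56 and 3.22) did not pass it on both.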

How the results depend on the processing

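No paired analysis was possible because both arrays belong to 1 group. Of 72 recomputed values for 11 results, 60 stayed and 12 moved. A value stayed where it lay within 1.5 times the reported count or, for medians, within the spread between arrays. Reversals were not scored. With the second background set as threshold, members above background numbered 11 in place of 33, other SLC genes 26, import genes 4, other membrane transport genes 9 and partner enzymes 16. With the olfactory threshold raised to the 99th percentile, 24 members passed, which is also the value set against the 11 above the second threshold. They are necessarily among the reported 33, because that percentile is higher on both arrays (3.60 and 3.76). The share of all genes passing it was not counted. Other SLC genes above it numbered 100. SLC25A15, SLC25A16, SLC25A22, SLC25A29, SLC25A35, SLC25A44, SLC25A45, SLC25A47 and SLC25A48 did not pass there. Without replicate 1, 37 members passed the olfactory threshold, and without replicate 2, 33. The highest probe set per gene gave a median signal of 4.18 in place of 4.07. The median difference between arrays was -0.07 after quantile normalization, -0.05 after loess and -0.15 among detected genes, against -0.10. Among detected genes 4 members were higher by over 0.5 on replicate 2 in place of 7, because fewer genes were compared. Quantile normalization and loess each moved SLC25A46 out of the higher set and SLC25A5 into the lower set. The background correction, which needs scanner files, was not run. The effect of probes that match pseudogenes or paralogues was not tested.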
